A study of Danio rerio with 6 samples.

Results

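The comparison of a morpholino against the estrogen receptor ERbeta2 (ERbeta2 MO) with a standard control morpholino (coMO) is described here across the whole expression array. Of 6 arrays in the series, 4 belong to it, 2 per morpholino, and all 15502 probe sets that are not controls were its members. Morpholinos are synthetic antisense molecules that pair with a chosen mRNA. The ERbeta2 MO stops translation of its target, while the standard control is made to have no target in the fish. Both were injected at 15 uM into zebrafish eggs up to the 4 cell stage, and whole embryos were collected at 72 hours post fertilization (hpf), after growth at 28 °C. The uninjected arrays, also 2, served as a reference level. The series title places the interest in neuromasts, which are patches of hair cells along the lateral line of the fish, and the comparison asks what the targeted morpholino adds to the injection of any morpholino.

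ERbeta2 is a nuclear receptor that binds estrogen and then switches genes on or off. At this stage the larva has hatched or is hatching, the retina is forming photoreceptors, the liver, pancreas and gut are beginning to work, and cartilage and fin folds are being built. In zebrafish, morpholinos can also raise p53, a tumour suppressor that halts damaged cells, whether or not their target is hit, so genes of the p53 response are often read beside a morpholino phenotype.

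An injected morpholino is diluted as the embryo grows, which limits the groups as a model of a lost receptor. A block of translation need not alter the mRNA, so the receptor transcripts do not check the labels. The signal of esr2a was 70.9 and 94.9 on the ERbeta2 MO arrays, 62.1 and 54.9 on the coMO arrays and 51.8 and 89.6 on the uninjected arrays. That of esr2b was 48.5 and 46.7 on the ERbeta2 MO arrays, 61.2 and 53.5 on the coMO arrays and 57.2 and 55.3 on the uninjected arrays. Both lie in the lowest 25% of probe sets, which were left out of the test, and the files do not say which of these genes the morpholino targets. The eggs were pooled over aquaria and the samples are called biological replicates. The p-values rest on the spread between these replicates, estimated by limma over all 3 groups and drawn toward that of other probe sets. Markers of tissues of a 72 hpf embryo checked that the arrays held these tissues. They were not tested for telling 72 hpf from nearby stages. Of 30 genes in that list, 24 were on the array, 22 of them had a mean signal over 500 in uninjected embryos and none lay below 100 on every array. The leukocyte gene mpx read 103 on the first coMO array but lay below 100 on all the others. These criteria do not check the ERbeta2 MO arrays alone. Against coMO, 7 of the 24 fell at an adjusted p under 0.05 in limma, none rose, and the median change was -0.39. In whole embryos fewer cells of a type and less RNA per cell cannot be told apart.

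The arrays differed in ways beyond the groups. The ratio of 3′ to 5′ signal for the control transcript GAPDH, a measure of RNA integrity and of labelling, was 2.76 and 2.01 on the ERbeta2 MO arrays, 1.95 and 1.23 on the coMO arrays, and 1.32 and 1.24 on the uninjected arrays. The same ratio for acta1 ordered the injected arrays otherwise, with 8.92 and 13.5 on the ERbeta2 MO arrays, 21.8 and 10.8 on the coMO arrays and 3.54 and 4.26 on the uninjected arrays. The ERbeta2 MO arrays differed most between themselves, with a median absolute log2 difference of 0.330, against 0.222 for coMO and 0.169 for the uninjected pair. Differences of over 1 between replicates occurred in 6.76% of probe sets for ERbeta2 MO and 1.15% for coMO. The second coMO array correlated slightly more with the second uninjected array (r = 0.976 across probe sets) than with the first coMO array (r = 0.974).

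Against coMO, ERbeta2 MO changed 264 of 11626 tested probe sets, 2.27%, at an adjusted p under 0.05 in limma. Leaving out the first coMO array cut that number to 1 and leaving out the second to 0, while dropping the first or second ERbeta2 MO array gave 599 or 1606. It was 59 when only the 4 arrays were fitted, and the direction of the 264 was the same in each case. It was 0 with the log2 GAPDH ratio as a covariate and 31 with that of acta1, an alternative chosen after seeing the data. Of the 264, 76 rose (0.654%) and 188 fell (1.62%), and the falls were also larger, with a median of -1.65 against 1.29 for the rises. All changes are differences of log2(signal + 32) between groups of 2 arrays, so they understate the change of dim genes. In all 264 the groups did not overlap, as was true for 48.0% of all tested probe sets. Changes of over 2 on this scale were found for 12 risen and 71 fallen probe sets, and changes of over 3 for 2 and 16. Whether or not they passed, 168 probe sets (1.45%) lay over 1 and 415 (3.57%) lay under -1. The excess of falls held at every signal level, with 17 risen and 33 fallen among the dimmest 3876 probe sets, 26 and 59 among the middle 3875, and 33 and 96 among the brightest 3875.

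**Figure D1:**
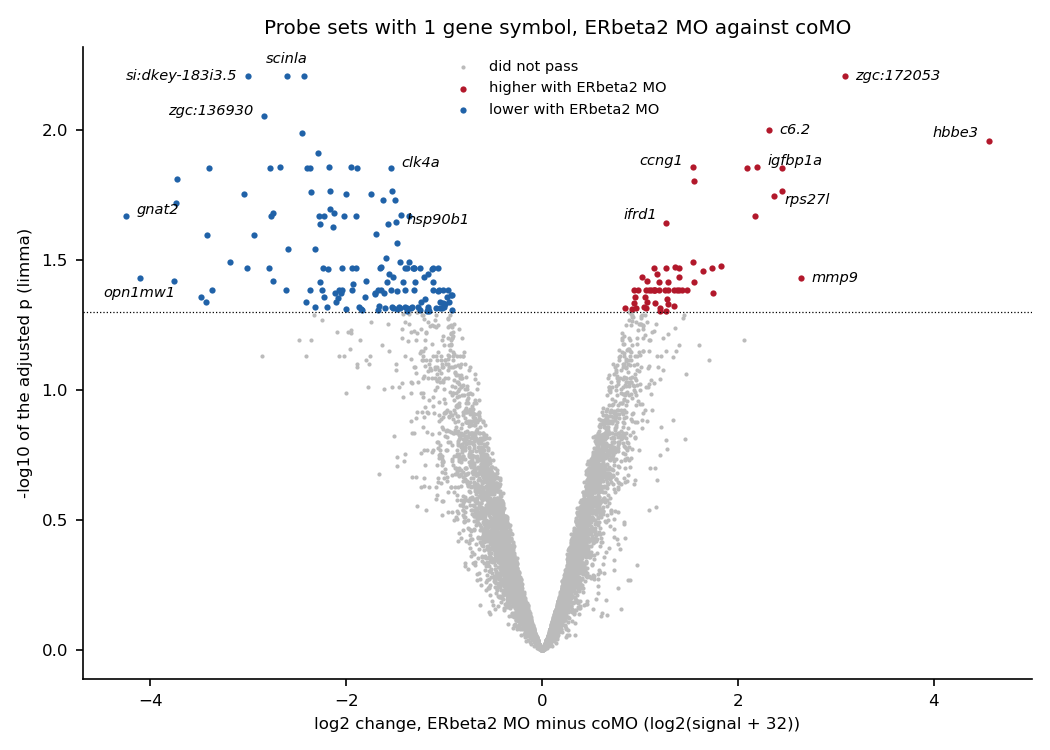
Log2 change of ERbeta2 MO over coMO (x axis, log2(signal + 32)) against the -log10 of limma's adjusted p (y axis) for each tested probe set with 1 gene symbol. Points above the dotted line passed at 0.05, in red where ERbeta2 MO was higher and in blue where it was lower, and the blue points outnumber the red and reach to -4.25 (gnat2), with hbbe3 alone at 4.56 on the other side.

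Counted by gene, with the brightest probe set standing for each, 56 of 7302 genes rose (0.767%) and 133 fell (1.82%). Without adjustment, 742 (10.2%) were higher and 790 (10.8%) lower at p under 0.05, and 50.6% of genes had a change above 0. The median over all genes was 0.01. These shares are the background for each gene list that follows. The lists are the 56 written for this comparison, with 6 to 108 tested genes each. They held 103 of the 189 changed genes. The sign of the median was the same in all 17 alternative settings for 36 lists. The interferon list kept its sign in the 16 settings that gave it a value. The sign changed for the insulin-like growth factor list, from -0.31 to 0.07 without ERbeta2 MO replicate 1, for keratins and fin fold (given below), and for other lists with medians within 0.2 of 0. Eye and digestive genes held the most calls of any lists. The retina and lens list had 18 falls among 47 tested genes and the digestive organ list 21 among 81, with no rise in either, and their medians were -1.48 and -0.80. Without the first ERbeta2 MO array the retina and lens median was -0.88, and without the second it was -2.22. For the digestive list it was -1.29 without coMO replicate 1 and -0.39 without coMO replicate 2.

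**Figure D2:**
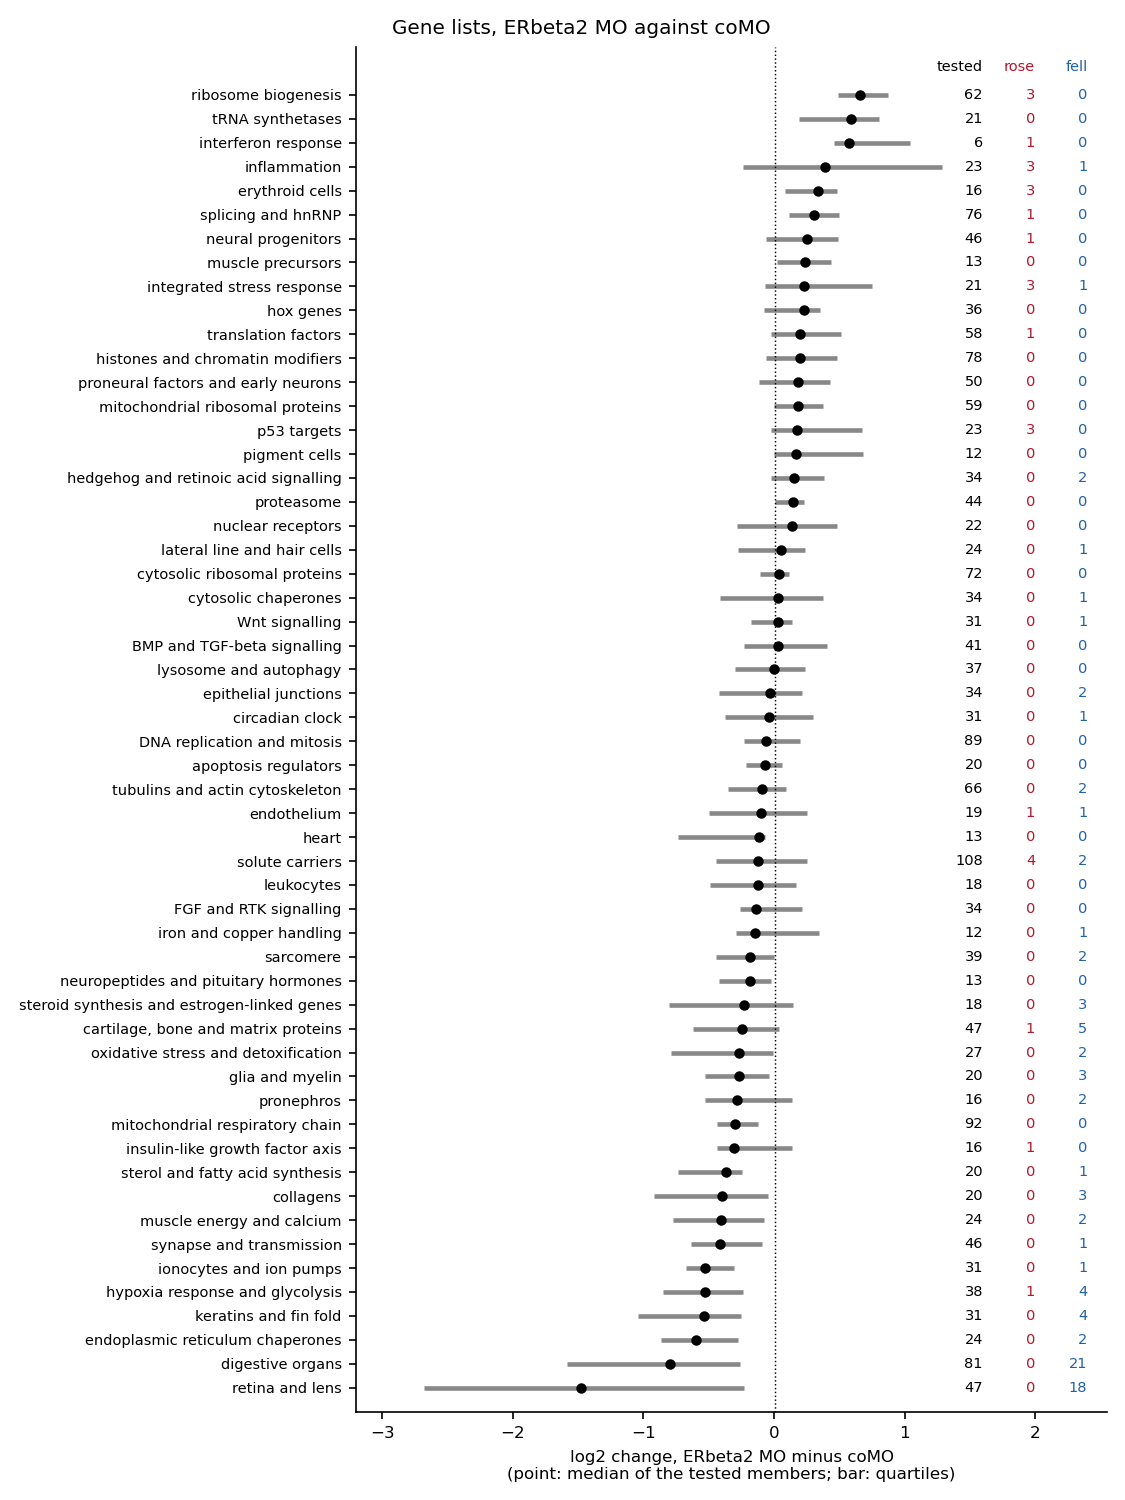
Median log2 change of ERbeta2 MO over coMO (points, x axis) with the quartiles of the tested members (bars) for 55 gene lists, sorted by the median, with the marker check of the tissues left out. The columns of numbers give the genes tested and those that rose or fell at an adjusted p under 0.05, and the dotted line is the median of all genes, 0.01; ribosome biogenesis stands at one end with 0.66 and retina and lens at the other with -1.48.

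Genes of the p53 response held 3 rises. The signal of ccng1, which encodes cyclin G1, a direct p53 target, was 16282 and 14488 on the ERbeta2 MO arrays, 4891 and 5601 on the coMO arrays and 6206 and 6299.8 on the uninjected arrays. Both ERbeta2 MO arrays were well above all others, and coMO lay slightly below the uninjected level. The rise was 1.55 ± 0.18 (SE, adjusted p = 0.0139). The signal of rps27l, a p53-induced ribosomal protein relative, was 6489.8 and 3052 on the ERbeta2 MO arrays, 856 and 813 on the coMO arrays and 673 and 689 on the uninjected arrays. Here the ERbeta2 MO arrays also differed from each other, yet the lower of them was above every other array, with a change of 2.37 ± 0.32 (SE, adjusted p = 0.018). Another p53 target, phlda3, a repressor of Akt signalling, rose by 1.16 ± 0.21 (SE, adjusted p = 0.0412). No other of the 23 tested p53 targets passed, and none fell. Members picked after their values were seen, none of which passed, were 0.95 for mdm2, the ubiquitin ligase that restrains p53, 0.80 for the death effector baxa and 0.96 for the growth arrest gene gadd45aa. The list median was 0.18, with 16 of 23 genes above 0, and it was 0.47 without ERbeta2 MO replicate 2. Of the 20 tested regulators of apoptosis none passed, and their median was -0.07, which turned to 0.06 without coMO replicate 2.

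The integrated stress response, in which cells slow translation and switch to ATF transcription factors, showed 3 rises and 1 fall among 21 tested genes. The signal of atf3 was 1546 and 783 on the ERbeta2 MO arrays, 216 and 221 on the coMO arrays and 260.0 and 346 on the uninjected arrays. The ERbeta2 MO arrays stood apart from the other arrays and from each other. Its change was 2.18 ± 0.31 (SE, adjusted p = 0.0215). The signal of atf4b, a central factor of this response, was 5607 and 5607 on the ERbeta2 MO arrays, 2847 and 2664 on the coMO arrays and 2361 and 2577 on the uninjected arrays. These groups were tight, and the rise was 1.02 ± 0.18 (SE, adjusted p = 0.0367). A related factor, atf5b, rose by 1.82 ± 0.29 (SE, adjusted p = 0.0334), which became 1.13 with the GAPDH ratio as a covariate. The fall was in slc3a2a, the shared chain of several amino acid transporters and usually a target of this response, at -1.02 ± 0.21 (SE, adjusted p = 0.0483). The list median of 0.23 was 0.12 without ERbeta2 MO replicate 1 but 0.36 without replicate 2.

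Genes for the assembly of ribosomes in the nucleolus were the list with the highest median, 0.66. Of 62 tested, 3 rose, none fell and 61 had values above 0. Without adjustment 40 were higher and none lower. The signal of nop58, a core protein of the particles that modify ribosomal RNA, was 3910.0 and 2799 on the ERbeta2 MO arrays, 1455 and 1499 on the coMO arrays and 1992 and 1796 on the uninjected arrays. Its coMO arrays lay below the uninjected ones and its ERbeta2 MO arrays above, with a change of 1.15 ± 0.21 (SE, adjusted p = 0.0412). The signal of wdr12, needed for the large subunit, was 501 and 495 on the ERbeta2 MO arrays, 243 and 238 on the coMO arrays and 351 and 307 on the uninjected arrays. Replicates were close, and the rise was 0.96 ± 0.19 (SE, adjusted p = 0.0483). For mybbp1a, a nucleolar protein, the rise was 1.07 ± 0.21 (SE, adjusted p = 0.046). Members that did not pass, picked after their values were seen, include mphosph10 (1.27), pes (1.14), nop2 (1.07), polr1c (1.09) and dkc1 (0.95).

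The size of the ribosome biogenesis shift rested on ERbeta2 MO replicate 1. The mean of the list, relative to the uninjected arrays, was 0.89 and 0.25 on the ERbeta2 MO arrays and -0.16 and -0.075 on the coMO arrays. Both ERbeta2 MO arrays were above both coMO arrays, the first by much more. The median was 0.31 without that replicate and 0.94 without the other. With the GAPDH ratio as a covariate it was 0.42. The 72 tested ribosomal proteins of the cytosol, the parts that these factors assemble, had a median of 0.04, and -0.08 without coMO replicate 1, and none passed.

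Of the genes in no list, odc1 and taf1c were among the 20 largest rises, and mycn, nob1 and deptor were picked after their values were seen. The signal of mycn, a MYC family transcription factor, was 2015 and 2019 on the ERbeta2 MO arrays, 1077 and 736 on the coMO arrays and 862 and 741 on the uninjected arrays. Its ERbeta2 MO arrays were nearly equal and above all others. The rise was 1.15 ± 0.23 (SE, adjusted p = 0.0464). The signal of odc1, which makes the first polyamine, was 2218 and 1345 on the ERbeta2 MO arrays, 563 and 683 on the coMO arrays and 609.6 and 672 on the uninjected arrays, and it rose by 1.43 ± 0.26 (SE, adjusted p = 0.0412). Other rises were those of nob1, the nuclease that finishes the small subunit RNA (1.05 ± 0.20 SE, adjusted p = 0.0439), and taf1c, a subunit of a factor of RNA polymerase I (1.40 ± 0.26 SE, adjusted p = 0.0412). An inhibitor of the growth kinase mTOR, deptor, fell by 1.06 ± 0.20 (SE, adjusted p = 0.0412).

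Translation and RNA handling gave smaller values in the same direction. Of 58 translation factors only eif4a1a, the helicase that opens mRNA leaders, passed. Its signal was 7649.8 and 7493 on the ERbeta2 MO arrays, 4256 and 4137 on the coMO arrays and 3284 and 3458 on the uninjected arrays. The replicates nearly coincided, and the rise was 0.85 ± 0.17 (SE, adjusted p = 0.0482), although a second probe set of the gene read -0.33. The list median was 0.20, and 0.38 without ERbeta2 MO replicate 2. No tRNA synthetase of 21 passed, but 17 had values above 0 with a median of 0.59, led by iars1 at 1.33 and hars at 1.06. It was 0.15 without ERbeta2 MO replicate 1 and was 0.98 without replicate 2 and 0.31 with the GAPDH covariate. Among 76 splicing factors and RNA-binding hnRNPs, 63 lay above 0, with a median of 0.31. In this list lsm1, a subunit of the ring that marks mRNA for decay, rose by 1.06 ± 0.21 (SE, adjusted p = 0.0482). The splicing list moved little between settings, from 0.26 to 0.38 over the 17 alternatives. Chromatin genes had a median of 0.20 over 78 members, none of which passed. The 89 genes of DNA replication and mitosis also gave no call, with a median of -0.06 that turned to 0.08 without ERbeta2 MO replicate 2.

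**Figure D3:**
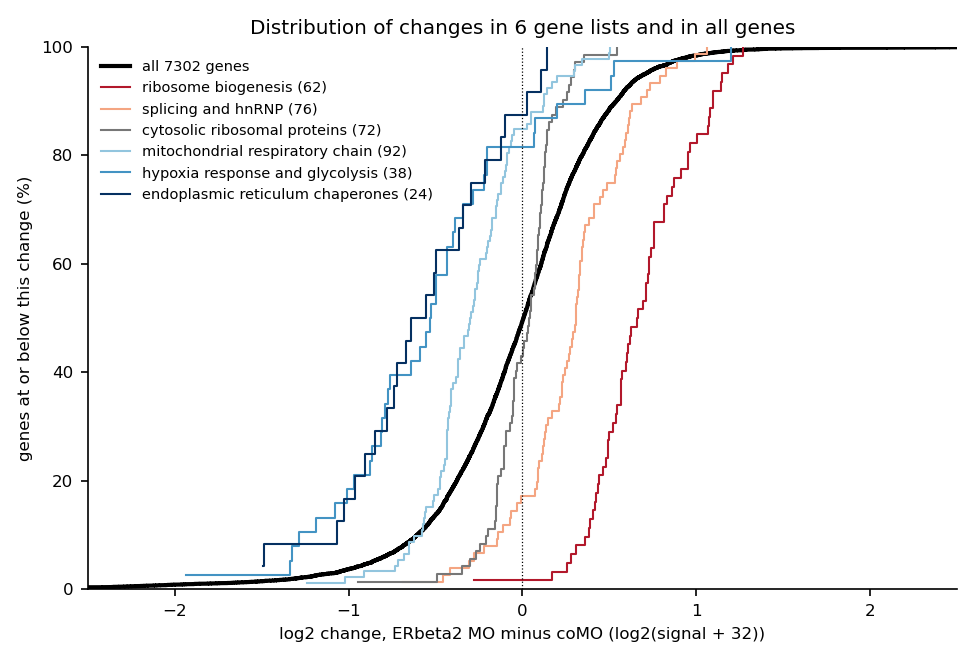
Cumulative share of genes (y axis, %) at or below each log2 change of ERbeta2 MO over coMO (x axis, log2(signal + 32)), for all 7302 genes in black and for 6 lists with their numbers in brackets. Ribosome biogenesis lies to the right of all genes over nearly its whole range, cytosolic ribosomal proteins rise steeply near 0, and the chaperones of the endoplasmic reticulum and the hypoxia and glycolysis list lie to the left.

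Chaperones of the endoplasmic reticulum fold secreted and membrane proteins. Of 24 tested, 2 fell, none rose, 21 had values below 0 and 13 were lower without adjustment, with a median of -0.60. The signal of hsp90b1, the HSP90 of this compartment, was 826 and 1022 on the ERbeta2 MO arrays, 2471 and 2824 on the coMO arrays and 1909 and 2518 on the uninjected arrays. Both ERbeta2 MO arrays were below the rest. Its change was -1.49 ± 0.22 (SE, adjusted p = 0.0226). The signal of calr3a, a calreticulin, was 2042 and 2274 on the ERbeta2 MO arrays, 4529 and 4553 on the coMO arrays and 4523 and 4657 on the uninjected arrays. The other groups were nearly level, and the change was -1.06 ± 0.17 (SE, adjusted p = 0.0338). Members that did not pass, picked after their values were seen, include calr (-1.03), the disulfide isomerases pdia3 (-0.85) and pdia6 (-0.91), and the HSP70 of this compartment, hspa5 (-0.64). The mean of the list relative to uninjected embryos was -0.79 and -0.65 on the ERbeta2 MO arrays and -0.18 and -0.087 on the coMO arrays, so the arrays of each morpholino stood close together, and the median lay from -0.75 to -0.48 over the alternatives. The chaperones of the cytosol had a median of 0.03, and -0.07 without coMO replicate 1. In that list dnaja1, a co-chaperone of HSP70, fell by 1.17 ± 0.24 (SE, adjusted p = 0.0489), and members ranged from -1.53 to 1.16. Picked after its values were seen, hsc70, in no list, fell by 2.04 ± 0.34 (SE, adjusted p = 0.0338), with a dimmer probe set at -1.78 that did not pass. Also picked so, hsp90aa1.2 read -1.22 on its brighter probe set, which did not pass, and -1.94 on a dimmer one, which passed.

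Of 38 tested genes of glycolysis and of the response to low oxygen, 4 glycolytic genes fell and vegfaa rose, and 17 were lower without adjustment against 1 higher. The signal of pgam1a, phosphoglycerate mutase, was 994 and 1013 on the ERbeta2 MO arrays, 1973 and 2129.5 on the coMO arrays and 2534 and 2166 on the uninjected arrays. The replicates were close in every group, with ERbeta2 MO lowest. Its change was -1.01 ± 0.19 (SE, adjusted p = 0.0412). An aldolase, aldoca, fell by 1.94 ± 0.36 (SE, adjusted p = 0.0412). The phosphofructokinase of muscle, pfkma, fell by 1.32 ± 0.27 (SE, adjusted p = 0.048). An enolase, eno1b, fell by 1.34 ± 0.27 (SE, adjusted p = 0.0484), and its change became -0.77 with the GAPDH covariate. The signal of vegfaa, a growth factor for blood vessels, was 379 and 417 on the ERbeta2 MO arrays, 176 and 136 on the coMO arrays and 127 and 99.3 on the uninjected arrays, and the rise was 1.20 ± 0.22 (SE, adjusted p = 0.0412). The list mean was -0.69 and -0.69 on the ERbeta2 MO arrays and -0.24 and -0.10 on the coMO arrays relative to uninjected embryos. The median was -0.53 and lay from -0.59 to -0.44 over the alternatives.

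Lists of mitochondrial genes lay on both sides of 0. None of 92 respiratory chain genes passed, 78 of them lay below 0 and their median was -0.30, which was -0.15 without ERbeta2 MO replicate 2. The lowest p belonged to cox6b1, a subunit of cytochrome oxidase, with -0.91 and an adjusted p of 0.0618. Of 59 mitochondrial ribosomal proteins none passed and 44 lay above 0, with a median of 0.19 that was 0.00 without ERbeta2 MO replicate 1 and 0.37 without replicate 2. A carrier outside the chain, slc25a3a, which brings phosphate into mitochondria, fell strongly. Its signal was 109 and 256 on the ERbeta2 MO arrays, 1196 and 1329 on the coMO arrays and 1324 and 1376 on the uninjected arrays. Its change was -2.68 ± 0.31 (SE, adjusted p = 0.0139). It was lower on the first ERbeta2 MO array, as was the mean of the retina and lens list (-2.12 and -1.06). The respiratory chain mean was lower on the second (-0.28 and -0.56). Which tissue the slc25a3a signal came from was not tested. Antioxidant enzymes had 2 falls among 27, catalase (cat) at -1.20 ± 0.23 (SE, adjusted p = 0.0446) and the glutathione transferase gstt1a at -1.38 ± 0.23 (SE, adjusted p = 0.0338). The former became -0.80 when the first ERbeta2 MO array and the second coMO array were both left out. Of 20 genes of sterol and fatty acid synthesis, fads2, a fatty acid desaturase, fell by 1.25 ± 0.20 (SE, adjusted p = 0.0338), and the median was -0.36, from -0.47 to -0.28 over the alternatives.

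**Figure D4:**
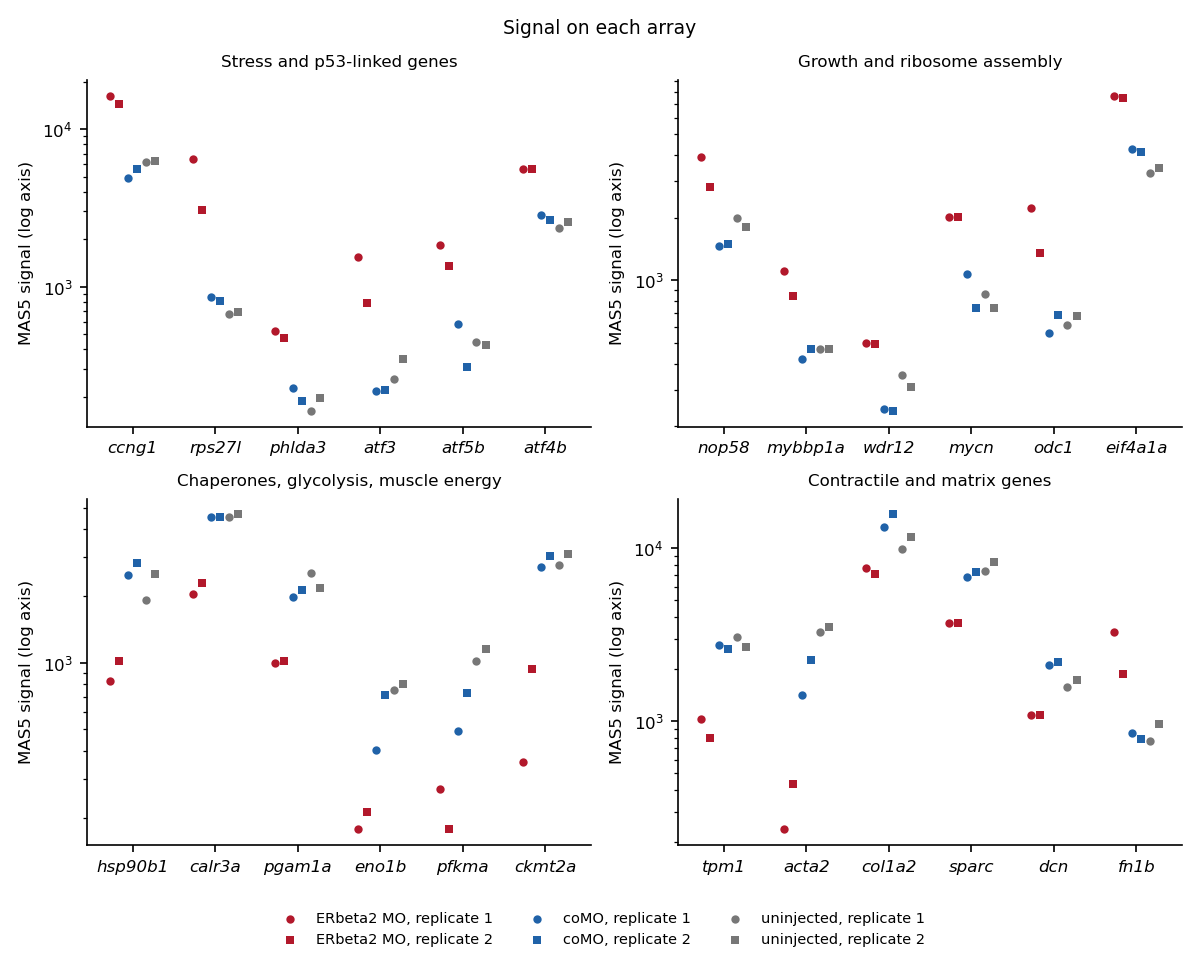
MAS5 signal (y axis, log scale) of 24 genes on each of the 6 arrays, red for ERbeta2 MO, blue for coMO and grey for uninjected, circles for replicate 1 and squares for replicate 2. In every gene shown both red points lie on one side of both blue points, above them in the upper panels and for fn1b, and below them otherwise. This follows from the choice of genes, since all of them passed. The groups did not overlap in any of the 264 probe sets that passed, nor in 48.0% of all tested probe sets.

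Muscle genes included 4 falls, ckmt2a and pfkma among 24 genes of muscle energy and calcium, and tpm1 and desmb among 39 sarcomere genes. The signal of ckmt2a, the creatine kinase of mitochondria, was 356 and 937 on the ERbeta2 MO arrays, 2689 and 3024 on the coMO arrays and 2765 and 3074 on the uninjected arrays. Its ERbeta2 MO arrays were the lowest and unequal. The change was -2.23 ± 0.37 (SE, adjusted p = 0.0338). Its lower ERbeta2 MO array was the first, as for the retina and lens list, with means of -2.12 and -1.06 relative to uninjected embryos. The means of the muscle energy and calcium list were -0.56 and -1.20, lower on the second. Which tissue the ckmt2a signal came from was not tested. The signal of tpm1, a tropomyosin of thin filaments, was 1028 and 803 on the ERbeta2 MO arrays, 2756 and 2605 on the coMO arrays and 3077 and 2702 on the uninjected arrays. Replicates were close, and the change was -1.53 ± 0.20 (SE, adjusted p = 0.0171). Desmin (desmb), an intermediate filament of muscle, gave -1.54 ± 0.28 (SE, adjusted p = 0.0412), and -0.97 with the GAPDH covariate. The sarcomere median of -0.18 turned to 0.14 without ERbeta2 MO replicate 2 and was -0.53 without replicate 1. The energy and calcium median of -0.40 was -0.16 and -0.65 in these settings. Of 13 heart genes and 13 genes of muscle precursors none passed.

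Of 20 tested collagens, 3 fell and none rose, and the median was -0.40, from -0.53 to -0.33 over the alternatives. The signal of col1a2, a chain of the main collagen of skin and bone, was 7713 and 7055 on the ERbeta2 MO arrays, 13320.0 and 15655 on the coMO arrays and 9875 and 11532 on the uninjected arrays. The coMO arrays were the highest and the ERbeta2 MO arrays lay below the uninjected ones. The change was -0.97 ± 0.19 (SE, adjusted p = 0.0439). A cartilage collagen, col11a2, gave -0.99 ± 0.20 (SE, adjusted p = 0.0465). Its signal was 520.0 and 631 on the ERbeta2 MO arrays, 1119 and 1227 on the coMO arrays and 656 and 639 on the uninjected arrays. The uninjected level was thus nearer to ERbeta2 MO than to coMO. For col10a1a, a collagen of hypertrophic cartilage and bone, the change was -2.02 ± 0.29 (SE, adjusted p = 0.0215), and coMO lay below the uninjected arrays. The collagen list mean relative to uninjected embryos was -0.32 and -0.24 on the ERbeta2 MO arrays and 0.17 and 0.19 on the coMO arrays. Of the cartilage, bone and matrix list, described next, dcn and sparc were among 5 falls. The signal of dcn, decorin, was 1092 and 1089.7 on the ERbeta2 MO arrays, 2113 and 2189.8 on the coMO arrays and 1576 and 1741 on the uninjected arrays, and the change was -0.96 ± 0.18 (SE, adjusted p = 0.0413). The signal of sparc, osteonectin, was 3707 and 3715 on the ERbeta2 MO arrays, 6809 and 7288 on the coMO arrays and 7384 and 8365 on the uninjected arrays, with -0.92 ± 0.18 (SE, adjusted p = 0.043). Replicates were close for both. Identity is less certain for col10a1a and sparc, since another gene's probe set carries the same cluster name.

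Within the 47 genes of cartilage, bone and matrix, 5 fell and 1 rose. Beside dcn and sparc the falls were matn1, a matrilin of cartilage (-2.79 ± 0.47 SE, adjusted p = 0.0339), ecrg4a, a secreted peptide precursor (-1.50 ± 0.20 SE, adjusted p = 0.0186), and runx2a, a bone-forming transcription factor (-1.17 ± 0.20 SE, adjusted p = 0.0358). The change of matn1 became -1.84 when the first ERbeta2 MO array and the second coMO array were left out together. The signal of runx2a was 373 and 423 on the ERbeta2 MO arrays, 1004 and 863 on the coMO arrays and 610 and 690 on the uninjected arrays. Its coMO arrays thus lay above the uninjected ones, as did those of matn1, while those of ecrg4a overlapped them. A second probe set of runx2a read -0.04. The rise was in fn1b, a fibronectin. Its signal was 3259.8 and 1887 on the ERbeta2 MO arrays, 858 and 794 on the coMO arrays and 765 and 968 on the uninjected arrays. Both ERbeta2 MO arrays were above the others, the first more so, and the change was 1.55 ± 0.27 (SE, adjusted p = 0.0383). The list mean was -0.24 and -0.24 on the ERbeta2 MO arrays and 0.0066 and 0.09 on the coMO arrays, so both ERbeta2 MO arrays gave the same value.

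The lists of keratins and fin fold and of salt-transporting cells held 5 falls. Of 31 genes in the keratins and fin fold list, krt15, and2, and3 and agr2 fell and none rose. The last of these is also in the list of steroid and estrogen-linked genes. The signal of and2, an actinodin of the fin fold's fibres in zebrafish, was 2577 and 3467 on the ERbeta2 MO arrays, 6369 and 7569 on the coMO arrays and 7820.0 and 7323 on the uninjected arrays, and its change was -1.21 ± 0.21 (SE, adjusted p = 0.0368). The signal of krt15, a keratin, was 331 and 168 on the ERbeta2 MO arrays, 1006 and 1372 on the coMO arrays and 2161 and 1952 on the uninjected arrays, with -2.16 ± 0.30 (SE, adjusted p = 0.0202). A second actinodin, and3, fell by 1.11 ± 0.20 (SE, adjusted p = 0.0386), and agr2, which folds secreted mucins, by 1.16 ± 0.23 (SE, adjusted p = 0.048), which became -0.75 with the GAPDH covariate. The list mean was -0.62 and -1.78 on the ERbeta2 MO arrays and -0.76 and -0.44 on the coMO arrays. The first ERbeta2 MO array lay between the coMO arrays and the second far below, so the groups overlapped, and the median of -0.54 was 0.01 without replicate 2. Among 31 genes of ionocytes and ion pumps, 29 lay below 0 and only atp1a1a.4, a sodium pump subunit of skin ionocytes in zebrafish, fell. Its signal was 655 and 722 on the ERbeta2 MO arrays, 1552 and 1500.2 on the coMO arrays and 1799 and 2028 on the uninjected arrays, and the change was -1.11 ± 0.19 (SE, adjusted p = 0.0338). That list's median was -0.53, and -0.26 without ERbeta2 MO replicate 1. The water channel aqp3a, found in skin, fell by 1.42 ± 0.25 (SE, adjusted p = 0.0386), but was listed with the pronephros, the kidney of the larva. The pronephros list had 2 falls among 16 tested genes, aqp3a and atp1a1a.4, which is in both lists. Without adjustment 3 of its genes were higher (18.8%) and 2 lower (12.5%), and its median was -0.29. Which tissue the signals of aqp3a and atp1a1a.4 came from was not tested.

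In the nervous system, the medians of progenitor genes and of genes of glia and synapses lay on opposite sides of 0. Among 46 progenitor genes, dlb, a Delta ligand of Notch, rose. Its signal was 867 and 815 on the ERbeta2 MO arrays, 399 and 277 on the coMO arrays and 253 and 299.8 on the uninjected arrays, and its change was 1.26 ± 0.23 (SE, adjusted p = 0.0412). The value of notch3, a Notch receptor, was 0.47. The progenitor median of 0.25 became 0.13 when the second ERbeta2 MO array was left out, or 0.16 when the second coMO array was. None of 50 proneural and early neuron genes passed, with a median of 0.19 that turned to -0.08 without the second ERbeta2 MO array. Among 20 genes of glia and myelin, 3 fell. The signal of mbpa, the basic protein of myelin, was 46.6 and 169.5 on the ERbeta2 MO arrays, 436 and 577 on the coMO arrays and 725 and 579.5 on the uninjected arrays, with a change of -2.08 ± 0.40 (SE, adjusted p = 0.0441), and -1.31 with the GAPDH covariate. The claudin of myelin, cldnk, fell by 1.18 ± 0.24 (SE, adjusted p = 0.0497), and glula, the glutamine synthetase of glia, by 0.95 ± 0.19 (SE, adjusted p = 0.046). The glial median was -0.27, -0.42 without coMO replicate 1 and -0.15 when the first ERbeta2 MO and second coMO arrays were both dropped.

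Of 46 genes of synapses, syt5a, a calcium sensor of vesicle release, fell, and no other passed. Its signal was 126 and 289.9 on the ERbeta2 MO arrays, 959 and 1088 on the coMO arrays and 1056 and 1143 on the uninjected arrays. Both ERbeta2 MO arrays were lowest, and the change was -2.23 ± 0.32 (SE, adjusted p = 0.0214). The first was the lower, as in the means of the synapse list (-0.56 and 0.09) and of the retina and lens list (-2.12 and -1.06). Which tissue the syt5a signal came from was not tested. The synaptic median of -0.42 was -0.15 without ERbeta2 MO replicate 1, -0.73 without replicate 2 and -0.11 with the GAPDH covariate. Of 24 genes of the lateral line and hair cells, which the series title points to, only pvalb8, a parvalbumin, passed. Its signal was 511 and 539 on the ERbeta2 MO arrays, 1357 and 1435 on the coMO arrays and 2505 and 2051 on the uninjected arrays, and its change was -1.36 ± 0.19 (SE, adjusted p = 0.0214). The list mean was 0.076 and 0.03 on the ERbeta2 MO arrays and 0.074 and 0.058 on the coMO arrays, with the groups overlapping, and the median was 0.05, and -0.03 without coMO replicate 1.

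Signals of defence and blood stood among the largest rises, though other defence genes fell and brighter globins overlapped between the groups. The signal of mmp9, a matrix protease of tissue remodelling, was 1276 and 381 on the ERbeta2 MO arrays, 89.2 and 82.1 on the coMO arrays and 116 and 146 on the uninjected arrays. The ERbeta2 MO arrays were highest and unequal. Its change was 2.64 ± 0.46 (SE, adjusted p = 0.037). The signal of socs3b, an inhibitor of cytokine signalling, was 1104 and 618 on the ERbeta2 MO arrays, 259.7 and 197 on the coMO arrays and 236 and 229 on the uninjected arrays, with 1.73 ± 0.29 (SE, adjusted p = 0.0338), and 1.15 when the first ERbeta2 MO array and the second coMO array were left out together. With fosl2, a partner of Jun, these were the 3 rises among 23 inflammation genes, and crp, a pentraxin of the acute phase, fell by 2.32 ± 0.36 (SE, adjusted p = 0.0286). The signal of crp was only 6.96 and 31.7 on the ERbeta2 MO arrays. Its change was -3.75 with 1 added to the signal in place of 32, and -1.42 with 100 added. The inflammation median of 0.39 was 0.02 without ERbeta2 MO replicate 1 and 0.90 without replicate 2. Of 18 leukocyte markers none passed, with a median of -0.12 that turned to 0.03 without ERbeta2 MO replicate 1. The signal of isg15, a ubiquitin-like protein induced by interferon, was 242 and 197 on the ERbeta2 MO arrays, 18.2 and 36.8 on the coMO arrays and 34.9 and 46.5 on the uninjected arrays, near the bottom of the scale without ERbeta2 MO. Its rise was 2.09 ± 0.25 (SE, adjusted p = 0.014), and 1.33 with 100 added to the signal in place of 32. This gene entered the test only through its ERbeta2 MO arrays. Without them its mean lay below that of esr2a, which was left out. The complement component c6.2 gave 805 and 599 on the ERbeta2 MO arrays, 129.9 and 99.6 on the coMO arrays and 113 and 101 on the uninjected arrays, and rose by 2.32 ± 0.23 (SE, adjusted p = 0.01). Of further defence genes that passed, isg20 rose by 1.55. Others, picked after their values were seen, fell, namely defbl1 (-2.27), cd59a (-2.12), mbl2 (-1.67) and ccl25b (-1.67). The change of mbl2 became -1.01 with 100 added to the signal in place of 32.

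The largest rise was in hbbe3, an embryonic globin. Its signal was 3716 and 2678 on the ERbeta2 MO arrays, 213 and 42.2 on the coMO arrays and 10.6 and 8.55 on the uninjected arrays. Both ERbeta2 MO arrays were high, the coMO arrays unequal and the uninjected arrays near the bottom of the scale, and the change was 4.56 ± 0.48 (SE, adjusted p = 0.0111). The anion exchanger of red cells, slc4a1a, had 1938 and 1137 on the ERbeta2 MO arrays, 309 and 195 on the coMO arrays and 139 and 204 on the uninjected arrays. It rose by 2.45 ± 0.32 (SE, adjusted p = 0.0171). These and hbaa1, dim on the coMO arrays at 39.7 and 65.7, were the 3 rises among 16 erythroid genes. Their median was 0.33, and 0.21 without ERbeta2 MO replicate 1, and 4 lay below 0. Brighter globins, picked after their values were seen, overlapped between the groups. The signal of hbbe2 was 5307 and 6206 on the ERbeta2 MO arrays and 6475 and 4321 on the coMO arrays. That of hbae3 was 27135 and 38112 on the ERbeta2 MO arrays and 26232 and 27726 on the coMO arrays. Of 19 vessel genes, vegfaa rose and the water channel aqp8a.1 fell (-1.31 ± 0.22 SE, adjusted p = 0.0338). Of these genes 13 lay below 0, and 5 (26.3%) were lower at an unadjusted p under 0.05, against 10.8% of all genes. Their median was -0.10. Leaving out the second ERbeta2 MO array made it -0.32, and leaving out the second coMO array -0.27. With quantile normalization it was -0.02, and with median centring -0.03. It was -0.05 with the first ERbeta2 MO and second coMO arrays both left out. The sign was below 0 in all 17 alternatives, though the size was near 0 in these.

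The signal of igfbp1a, which binds insulin-like growth factors, was 4581 and 3575 on the ERbeta2 MO arrays, 1031 and 717 on the coMO arrays and 1675 and 1239 on the uninjected arrays. The uninjected arrays lay above coMO and below ERbeta2 MO. Its rise was 2.19 ± 0.25 (SE, adjusted p = 0.0139), and no other of 16 genes of that axis passed. Of 18 steroid and estrogen-linked genes 3 fell. They were srd5a2a, a steroid reductase (-1.59 ± 0.28 SE, adjusted p = 0.0383), shbg, which carries sex steroids in blood (-1.48 ± 0.30 SE, adjusted p = 0.0489), and agr2. The change of srd5a2a became -1.03 with the GAPDH covariate, and that of shbg became -0.93 with 100 added to the signal in place of 32. None of 22 nuclear receptors, 34 genes of FGF and other receptor tyrosine kinase signalling or 41 of BMP and TGF-beta signalling passed, with medians of 0.14, -0.14 and 0.03. With the second ERbeta2 MO array left out the nuclear receptor median was 0.26, and with the first coMO array left out it was 0.27. The FGF median was -0.05 when the first ERbeta2 MO array was dropped, and the BMP median -0.04 when the first coMO array was. In Wnt signalling frzb, a secreted inhibitor, was the 1 fall among 31 (-1.27 ± 0.25 SE, adjusted p = 0.0479). Its signal was only 19.5 and 44.0 on the ERbeta2 MO arrays. The change was -1.98 with 1 added to the signal in place of 32, and -0.74 with 100 added. No hox gene of 36 passed. Without adjustment 4 were higher (11.1%, against 10.2% of all genes), with the smallest p-values for hoxb10a (0.89) and hoxa9a (1.04). The 12 pigment cell genes gave no call.

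The ERbeta2 MO arrays did not agree equally well in all lists. List means of the groups did not overlap in 36 of 56 lists, 16 higher and 20 lower with ERbeta2 MO. The share for single probe sets, 48.0%, is no background for means over many genes, and none was computed for such means. The ERbeta2 MO arrays differed by over 0.5 in 11 lists and the coMO arrays in 1. The first ERbeta2 MO array was far higher in keratins, pigment cells, sarcomere, inflammation, ribosome biogenesis and tRNA synthetases, and far lower in retina and lens, synapse genes and neuropeptides. In 17 of the 36 lists the ERbeta2 MO arrays lay within 0.1 of each other. Among those 17 were splicing, neural progenitors, chromatin, glycolysis, sterol synthesis, collagens and cartilage. The GAPDH ratio was also highest with ERbeta2 MO, so its effect and that of the morpholino cannot be fully told apart. As a covariate it also lowers the residual degrees of freedom, which were 3 in the main fit. With its log2 value as a covariate no probe set passed in limma, 771 had an unadjusted p under 0.05, and all 264 changes kept their direction.

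**Figure D5:**
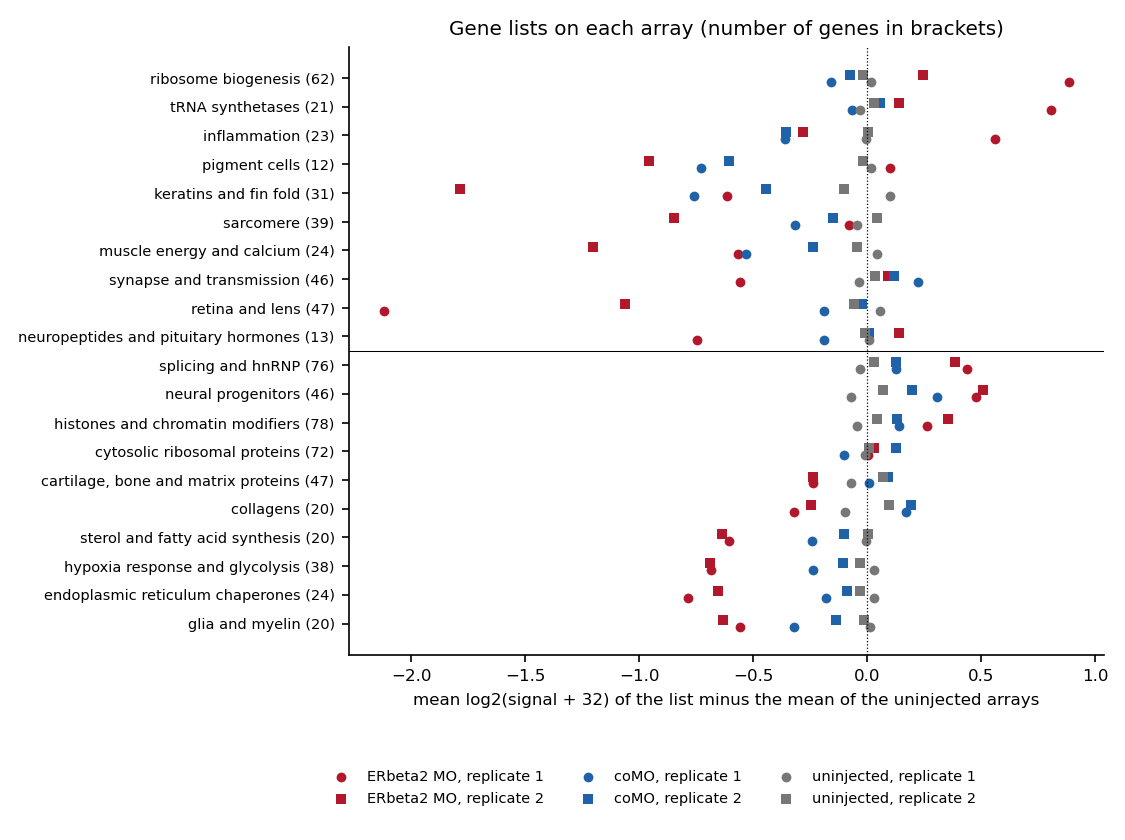
Mean log2(signal + 32) of 20 gene lists on each array minus the mean of the uninjected arrays (x axis), red for ERbeta2 MO, blue for coMO and grey for uninjected, circles for replicate 1 and squares for replicate 2. In the lists above the line the red circle and square lie far apart, by 1.17 in keratins and fin fold, while below it they lie close together, and in cytosolic ribosomal proteins they also overlap the blue points.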

How the data were processed

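Total RNA of whole embryos carried a biotin label and was measured on 1 Affymetrix array per sample. The deposited intensity values are MAS5 signals on a linear scale, 1 per probe set and array, and per the submitters' processing notes the authors used MAS5, whose version is not given there. The 2%-trimmed mean was 500.1 on all arrays. No detection calls are in the value table, so a low signal may be background. Precision is limited by the small number of arrays. The authors' deposited table of fold ratios lists 1022 probe sets that are not controls, of which 250 passed here in the same direction. These were 24.5% of the listed and 94.7% of the passing probe sets. The table is of the same comparison in this series, so this overlap is no independent check. Its ratios were used for nothing else.

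Of 15617 probe sets, 115 were controls. The platform annotation gave 1 gene symbol to 10802 of all probe sets, several to 135 and none to 4680. Genes were named from those with 1 symbol. Gene numbers matched 10718 of these to the GRCz12tu assembly's genes, and 1 symbol was updated. The brightest probe set stands for a gene. Counting genes by any passing probe set gave 200, of which 42 had several probe sets. In 40 of these 42 all probe sets had the same sign, but in only 9 did all of them pass. Further probe sets did not pass, with the same sign, for nop58, mybbp1a, mycn, col1a2, fosl2, srd5a2a and shbg. A filter removed the dimmest 25%, by the mean of log2(signal + 32), and the other probe sets were fitted by limma 3.58.1 (lmFit and eBayes with an intensity trend) under R 4.3.3 on all 6 arrays in 3 groups. The filter's mean was over all 6 arrays, so a gene dim in some groups could enter through another. Without the ERbeta2 MO arrays, hbbe3, hbaa1, isg15, taf1c and bmb would have had means below that of esr2a, which was left out. Residual degrees of freedom were 3 and those of the prior 5.31. Two-sided p-values were adjusted by Benjamini-Hochberg over 11626 probe sets, and the threshold was 0.05. With 2 arrays a group, the lowest p of an exact permutation test is 0.333. In simulated data of this comparison with 200 changed probe sets, 23% of the changes of 1 and 91% of the changes of 2 on the log2 scale were recovered, with 10 calls without a change. The simulated noise was independent between probe sets and equal in spread across groups. The real ERbeta2 MO arrays differed more between themselves than the other pairs, so these rates may not hold for them.

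The comparison and the gene lists were chosen with earlier results of these data known, and some wrong matches of gene names to lists were taken out after counts had been seen. Named genes are the 20 largest rises and falls, up to 4 changed members per list, or all where a list had up to 8, the 2 smallest p where none changed, and the estrogen receptors and notch3. Others, said where they stand to be picked after their values were seen, are outside this rule. Alternatives were other pseudocounts, filters, normalizations, priors and sets of arrays, the replicate number as a block and the GAPDH ratio as a covariate. The acta1 ratio as a covariate was added after seeing the data.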

Additional observations from a re-analysis of the deposited data

How the results depend on the processing

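All 264 changes kept their direction in every one of the 17 alternatives in which they were tested, but how many passed depended on the setting. The number was 170 with a pseudocount of 1 (47 higher, 123 lower), 129 with no filter (32 and 97), 176 with the lowest 50% left out (53 and 123), and 59 when only the 4 arrays compared were fitted (14 and 45). Leaving out 1 array gave from 0 to 1606 calls, 0 to 689 higher and 0 to 917 lower. These were 599 and 1606 without ERbeta2 MO replicate 1 and 2, and 1 (hbbe3) and 0 without coMO replicate 1 and 2, where 1983 and 1085 probe sets had an unadjusted p under 0.05. The lone array is then assumed to vary like the other groups, and the cause of the gap was not tested. When the first ERbeta2 MO array and the second coMO array were both left out the number was 793 (246 and 547). Adding the GAPDH ratio to the model left 0 calls, 0 in each direction, and 771 had an unadjusted p under 0.05. With the acta1 ratio instead, chosen after seeing the data, the number was 31 (5 and 26), all 264 kept their direction and 50 of 56 list medians their sign. Same-numbered samples were not treated as pairs in the main fit. The differences between replicates correlated across probe sets at -0.0849 for ERbeta2 MO and coMO. They correlated at 0.1113 for ERbeta2 MO and uninjected arrays. With 1 such difference per group, these values cannot show whether same-numbered samples were paired. A fit with the replicate number as a block gave 141 calls (34 higher, 107 lower). Median centring shifted the median change to 0.07 and gave 102 higher and 149 lower, or 40.6% higher against 28.8%. Of 56 list medians, 36 kept their sign in all 17 alternatives and the interferon list in the 16 that gave it a value. Of the 189 changed genes, 8 moved by over 1.5 times without ERbeta2 MO replicate 1, 29 with the GAPDH term and 35 with both of those arrays left out. With a pseudocount of 1 it was 6 genes, and with a pseudocount of 100 it was 15.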

Other observations

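Between ERbeta2 MO and coMO, 86 of the 189 changed genes lay in no gene list. The genes below, most of them among these, were picked after their values were seen. The signal of acta2, the actin of smooth muscle, was 238 and 438 on the ERbeta2 MO arrays, 1417 and 2253 on the coMO arrays and 3295 and 3509 on the uninjected arrays. Both morpholino groups lay below the uninjected level, and acta2 fell by 2.35 ± 0.31 (SE, adjusted p = 0.0173). The actin-binding protein tagln, also a smooth muscle marker, fell by 1.31 ± 0.22 (SE, adjusted p = 0.0338), and the myosin light chain kinase mylka by 0.92 ± 0.19 (SE, adjusted p = 0.0492), with a dimmer probe set of mylka at -0.76 that did not pass. The annexin anxa2b, which binds membranes when calcium is present, fell by 1.70 ± 0.32 (SE, adjusted p = 0.0427). Another annexin, anxa4, fell by 1.75 ± 0.23 (SE, adjusted p = 0.0176), while a second probe set of it read -0.45 and did not pass (adjusted p = 0.26 in limma). The gelsolin relative scinla, which cuts actin filaments, had a signal of 213 and 194 on the ERbeta2 MO arrays, 1188 and 1646 on the coMO arrays and 2324 and 1899 on the uninjected arrays. Its change was -2.60 ± 0.23 (SE, adjusted p = 0.00619), among the smallest adjusted p-values of the comparison. The nucleoside diphosphate kinase nme2a changed from 1898 and 2145 on the coMO arrays to 169.6 and 411, a change of -2.78 ± 0.34 (SE, adjusted p = 0.014). It was lower on the first ERbeta2 MO array, as was the mean of the retina and lens list, and its tissue was not tested.

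The signal of clk4a, a kinase of splicing factors, was 1108 and 1166 on the ERbeta2 MO arrays, 3176 and 3564 on the coMO arrays and 1943 and 2256 on the uninjected arrays. The coMO arrays were above the uninjected ones and the ERbeta2 MO arrays below, with -1.54 ± 0.19 (SE, adjusted p = 0.014). The RNA-binding gene qkia had 5282 and 4989 on the ERbeta2 MO arrays, 2792 and 2404 on the coMO arrays and 1635 and 1517 on the uninjected arrays, so both morpholino groups were above the uninjected level, and it rose by 0.98 ± 0.18 (SE, adjusted p = 0.0412). The helicase ddx3xb rose by 0.94 ± 0.18 (SE, adjusted p = 0.0412), though its probe set shares a cluster name with another gene's and a second probe set read 0.05. The stem cell factor trim71 rose by 1.20 ± 0.21 (SE, adjusted p = 0.0386), and foxn4, a forkhead factor of retinal and spinal progenitors, by 1.38 ± 0.25 (SE, adjusted p = 0.0412), with a dimmer probe set of foxn4 at 0.71 that did not pass. A linker histone gene, histh1l1, rose from 8189 and 7349.9 on the coMO arrays to 15552 and 17162, by 1.07 ± 0.19 (SE, adjusted p = 0.0381). The signal of bmb, a factor of nuclear envelope fusion in the early zebrafish embryo, was 513 and 272 on the ERbeta2 MO arrays, 36.4 and 48.6 on the coMO arrays and 5.45 and 7.31 on the uninjected arrays, with a rise of 2.45 ± 0.30 (SE, adjusted p = 0.014). Genes without a described role were also among the extremes. The signal of zgc:172053 was 1120.4 and 831 on the ERbeta2 MO arrays, 109 and 65 on the coMO arrays and 193 and 208 on the uninjected arrays, with 3.09 ± 0.26 (SE, adjusted p = 0.00619). Both si:dkey-183i3.5 and zgc:136930 fell, from 8103 and 9379 to 1273 and 883 and from 9931 and 12486 to 1951 and 1192.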
